A study of Mus musculus with 18 samples.

Results

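The CCAAT/enhancer-binding proteins (C/EBPs) on this platform were taken as every probe whose gene symbol in the platform annotation is Cebpa, Cebpb, Cebpd, Cebpe or Cebpg. This gave 11 of the 45281 probes and 5 of the 19057 genes, with 1 probe each for Cebpa and Cebpb, 2 for Cebpd, 4 for Cebpe and 3 for Cebpg. The cells were C2C12 myotubes, multinucleated muscle fibre-like cells that form when this established mouse myoblast line is cultured in low serum, here DMEM with 2% horse serum. Cultures received 1 uM dexamethasone (Dex), a synthetic agonist of the glucocorticoid receptor, or ethanol alone at 0.01% of the medium volume, for 6 h or for 24 h, and the title of the series names glucocorticoid receptor targets as its subject. The 18 arrays fall into 4 groups, ethanol 6 h (n = 4), Dex 6 h (n = 4), ethanol 24 h (n = 5) and Dex 24 h (n = 5), and the ethanol groups are the controls of their own time.

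C/EBPs are basic leucine zipper (bZIP) transcription factors that bind DNA as homodimers or as heterodimers with one another and with factors of the ATF and AP-1 groups. C/EBP-alpha is known for driving adipocyte, liver and myeloid differentiation, C/EBP-beta and C/EBP-delta for early adipogenesis and the acute-phase response, C/EBP-epsilon for late granulocyte maturation, and C/EBP-gamma for pairing with ATF4 while lacking an activation domain of its own. In muscle, C/EBP-beta is known as a regulator of satellite cells and of muscle wasting, and glucocorticoids are a classical inducer of such wasting.

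The 5 genes lie at 4 places in the mouse genome. In RefSeq's annotation of build GRCm38.p6, Cebpa (gene ID 12606) spans chr7:35119293-35121928, Cebpg (gene ID 12611) spans chr7:35046422-35056566, Cebpb (gene ID 12608) spans chr2:167688915-167690432, Cebpd (gene ID 12609) spans chr16:15887286-15889545 and Cebpe (gene ID 110794) spans chr14:54710363-54712174. Cebpg and Cebpa are neighbours on chromosome 7, with 62726 bases between them.

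The RefSeq promoter table held 3 of the 5 genes. The 250 bases before their start sites are shown because Cebpb and Cebpa were called higher with Dex at 24 h, whereas Cebpg, the neighbour of Cebpa, was not called in either direction. They are read 5′ to 3′ on the strand of each gene, with matches to any searched motif in capitals. The Cebpb stretch is chr2:167688665-167688914 on the plus strand, the Cebpa stretch chr7:35119043-35119292 on the plus strand, and the Cebpg stretch chr7:35056567-35056816 on the minus strand.
Cebpb: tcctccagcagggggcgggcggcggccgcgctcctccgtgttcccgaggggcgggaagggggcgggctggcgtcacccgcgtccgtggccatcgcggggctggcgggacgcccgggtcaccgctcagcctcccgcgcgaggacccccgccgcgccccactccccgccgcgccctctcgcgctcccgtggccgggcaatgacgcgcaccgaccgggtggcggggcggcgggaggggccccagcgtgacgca
Cebpa: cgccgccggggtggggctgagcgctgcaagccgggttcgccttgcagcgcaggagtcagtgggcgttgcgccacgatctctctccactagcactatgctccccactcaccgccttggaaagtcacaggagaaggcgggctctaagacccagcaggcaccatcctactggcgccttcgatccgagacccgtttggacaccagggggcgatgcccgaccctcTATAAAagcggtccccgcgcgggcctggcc
Cebpg: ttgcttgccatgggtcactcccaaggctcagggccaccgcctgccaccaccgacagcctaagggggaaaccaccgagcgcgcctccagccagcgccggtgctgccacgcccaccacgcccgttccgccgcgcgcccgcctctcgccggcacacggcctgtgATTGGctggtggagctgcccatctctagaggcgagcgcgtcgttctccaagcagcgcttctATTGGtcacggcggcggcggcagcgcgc

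These 3 promoters are rich in G and C, at 81.6% for Cebpb, 66.4% for Cebpa and 70.8% for Cebpg, against a median of 52.4% over the 32851 promoters of the table. The capitals in the Cebpa promoter mark TATAAA, 30 to 25 bases before the start, a match found in 12.4% of all promoters. The capitals in the Cebpg promoter mark CCAAT on the opposite strand, read here as ATTGG, 89 to 85 and 28 to 24 bases before the start, a match found in 33.8% of promoters. Each motif was searched on both strands, and the motifs do not share a match in these 3 stretches. The C/EBP palindrome TTGCGCAA (0.164% of promoters), the C/EBP-ATF element TGATGCAA (0.791%), the cAMP response element TGACGTCA (1.55%), the glucocorticoid response element core ACANNNTGT (5.84%) and the STAT motif TTCNNNGAA (7.02%) had 0 matches in the 3 stretches, which says only that these letters are not in these windows.

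Levels are the deposited linear probe intensities. Their median per array was 99.8 to 100.4 at 6 h but 85.2 to 86.8 at 24 h, so the times lie on different scales and levels are compared within a time only. A difference is the log2 fold change (log2FC), Dex over ethanol, with its standard error (SE) or 95% interval from a limma model over all 18 arrays, and a probe was called at an adjusted p under 0.05 over all 45281 probes. The design text mentions triplicates, but 4 or 5 arrays are numbered in each group, and all were used. Whether they represent separate cultures is not stated in the labels, so the p-values cover only variation among these arrays, possibly technical. On the brightest probes the deviations of some arrays were nearly fixed by those of the others, as described with the processing. The Cebpb probe is one of these probes. The arrays may thus not all be independent, and the p-values may be too small. In bulk RNA a smaller share of cells expressing a gene and less RNA per cell cannot be told apart. The 7 myotube markers measured (Ckm, Acta1, Myog, Des, Mylpf, Tnnt3 and Actn2) lay above 2 times the array median in every group, whereas 0 of 4 adipocyte, 0 of 4 osteoblast, 0 of 4 granulocyte and macrophage and 0 of 2 myoblast or cycling markers did. Arrays of one group correlated at 0.992 or more over all probes. The ethanol and Dex arrays numbered 1 at 24 h stood apart in opposite directions, with a correlation of -0.91 between their deviations from their group means over all probes (probes are not independent replicates), and results that rest on them are given without them.

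With Dex, Cebpb rose at both times and Cebpa rose at 24 h. Cebpd was not called by either of its probes, Cebpg was not called by any of its 3 probes, and of the 4 Cebpe probes a single dim one was called, at 24 h. At 6 h, 1 of the 11 probes was called, in the higher direction, whereas 6.26% of all probes were called, 2.98% of them higher and 3.28% lower as shares of all probes. At 24 h, 3 of the 11 probes were called, all higher, beside 12.6% of all probes, 6.43% higher and 6.22% lower. The median log2FC of the 11 probes was 0.11 at 6 h and 0.0030 at 24 h, beside -0.0004 and -0.0020 over all probes. Of the 5 C/EBP probes brighter than the median probe, 2 were called at 24 h, beside 19.3% of all such probes, and of the 6 dimmer ones 1 was called, beside 5.95%. With so few members these shares do not set the family apart from the rest of the array.

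**Figure D1:**
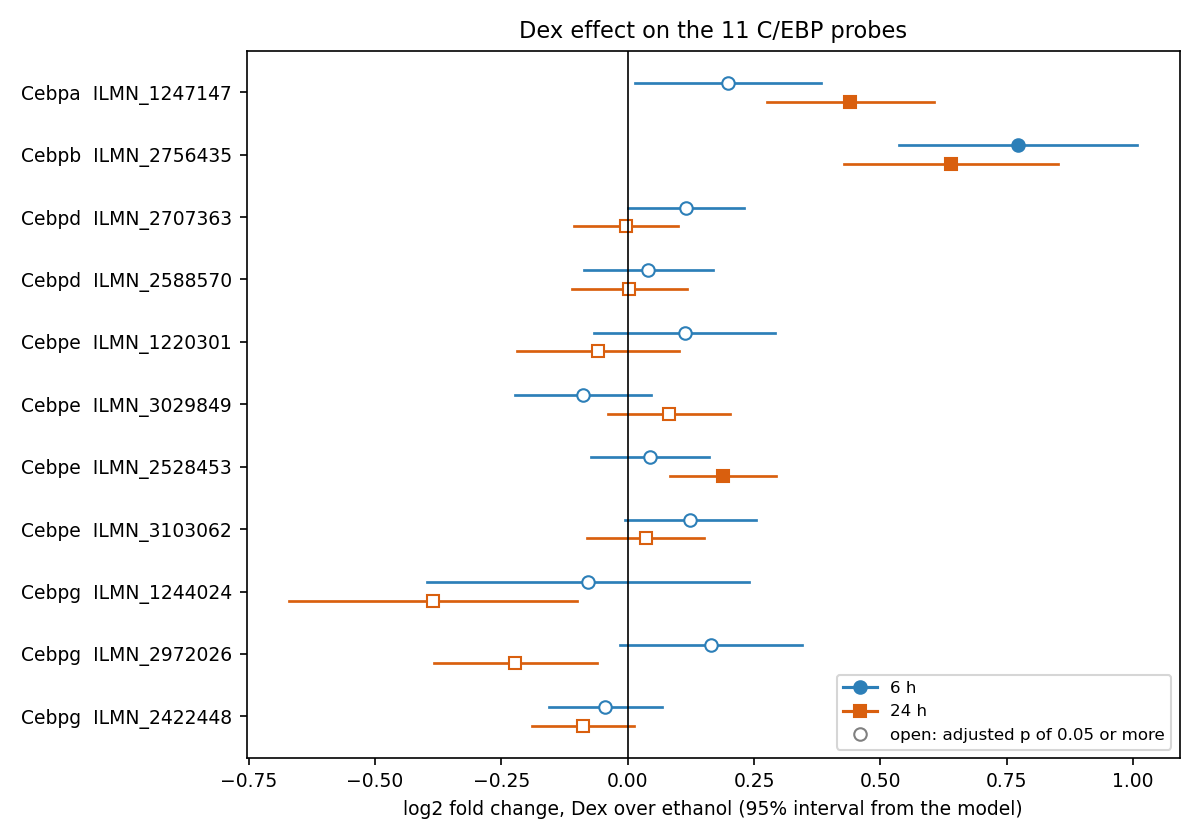
Log2 fold change of Dex over ethanol for each of the 11 C/EBP probes at 6 h (circles) and 24 h (squares), with the 95% interval from the limma model; filled symbols have an adjusted p under 0.05. Cebpb is filled at both times (0.77 and 0.64), Cebpa and the Cebpe probe ILMN_2528453 at 24 h (0.44 and 0.19), and the 3 Cebpg probes lie below 0 at 24 h with open symbols.

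Cebpb, the C/EBP gene with the largest log2FC on the deposited intensities, rose 1.71-fold at 6 h. Background left in dim probes understates their fold changes, so the order of the genes by response is uncertain. Its single probe, ILMN_2756435, read 4755, 3863, 4619 and 4107 on the ethanol arrays at 6 h and 7778, 6823, 7963 and 7014 on the Dex arrays, a mean of 4336 ± 421 (SD, n = 4) against 7394 ± 560 (SD, n = 4). Every Dex array lay above every ethanol array, a separation seen for 9.24% of all probes at this time. The log2FC was 0.77 (SE 0.11, 95% interval 0.54 to 1.01, limma adjusted p = 6.82e-05), and the exact two-sided permutation test gave p = 0.0286, the smallest that 4 against 4 arrays allow.

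At 24 h Cebpb was still higher, by 1.56-fold. The ethanol arrays read 4198, 3389, 3380, 3663 and 2860 and the Dex arrays 4156, 6573, 5069, 6210 and 5371, a mean of 3498 ± 487 (SD, n = 5) against 5476 ± 957 (SD, n = 5). The groups overlapped through 1 pair of arrays, both numbered 1, since the lowest Dex array fell just short of the highest ethanol array, while the other 4 Dex arrays lay above all ethanol arrays. The log2FC was 0.64 (SE 0.10, 95% interval 0.43 to 0.85, limma adjusted p = 0.000125), and the exact two-sided permutation p was 0.0159, where the smallest possible is 0.00794. Leaving out both arrays numbered 1 gave 0.80 (SE 0.09, adjusted p = 1.49e-06). The gene encodes several protein isoforms through the choice of start codon, which an RNA probe does not tell apart.

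The responses of Cebpb at the 2 times differed by -0.13 on the log2 scale (24 h minus 6 h, 95% interval -0.45 to 0.18, limma adjusted p = 0.690), so the data leave room for a fall or a small gain between the times. It was -0.04 without the Dex array numbered 1 at 24 h and 0.03 without both arrays numbered 1 (adjusted p = 0.917 and 0.930). Cebpb was called higher at both times, a pattern shared by 1.32% of all probes. Its probe is bright, with 97.1% to 98.4% of all probes dimmer than its group means. It belongs to the probes on which some array deviations were nearly fixed by others, so its p-values may be too small.

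Cebpa, which halts proliferation and switches on adipocyte and liver genes in the tissues where it is abundant, rose at 24 h from a low level. Its probe ILMN_1247147 read 96.2, 98.5, 100.5, 86.3 and 91.1 on the ethanol arrays and 122.9, 122.8, 114.5, 147.2 and 135.4 on the Dex arrays at 24 h, a mean of 94.5 ± 5.78 (SD, n = 5) against 129 ± 12.8 (SD, n = 5). The groups did not overlap, as for 13.7% of all probes at 24 h, and the Dex arrays spread more widely than the ethanol arrays. The log2FC was 0.44 (SE 0.08, 95% interval 0.28 to 0.61, 1.36-fold, limma adjusted p = 0.000546), with an exact two-sided permutation p of 0.00794, the smallest that 5 against 5 arrays allow.

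At 6 h the same probe read 131, 110.5, 105.8 and 94.9 on the ethanol arrays and 141.9, 118, 132.1 and 113.9 on the Dex arrays. The groups overlapped, since the ethanol array numbered 1 lay above 2 of the 4 Dex arrays. The log2FC of 0.20 (SE 0.09, 95% interval 0.01 to 0.38) was not called (limma adjusted p = 0.218, exact two-sided permutation p = 0.143). The difference between the times was 0.24 (95% interval -0.01 to 0.49, limma adjusted p = 0.275), which was not called. Cebpa stayed a dim probe, though above the median probe, with 61.2% of probes dimmer in ethanol and 72.1% in Dex at 24 h. Background left in such a value understates its fold change. The summed level of 4 measured adipocyte markers (Adipoq, Plin1, Fabp4 and Lep) ranged from 307 to 341.9 on the ethanol arrays and from 315.6 to 349.1 on the Dex arrays at 24 h, with 0 of 4 called and 0 of 4 at unadjusted p under 0.05 in limma. These 4 probes are all dim and each stayed under 2 times the array median. At 24 h 15.8% of all genes and 5.95% of the probes below the median probe were called, so 0 of 4 says little.

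**Figure D2:**
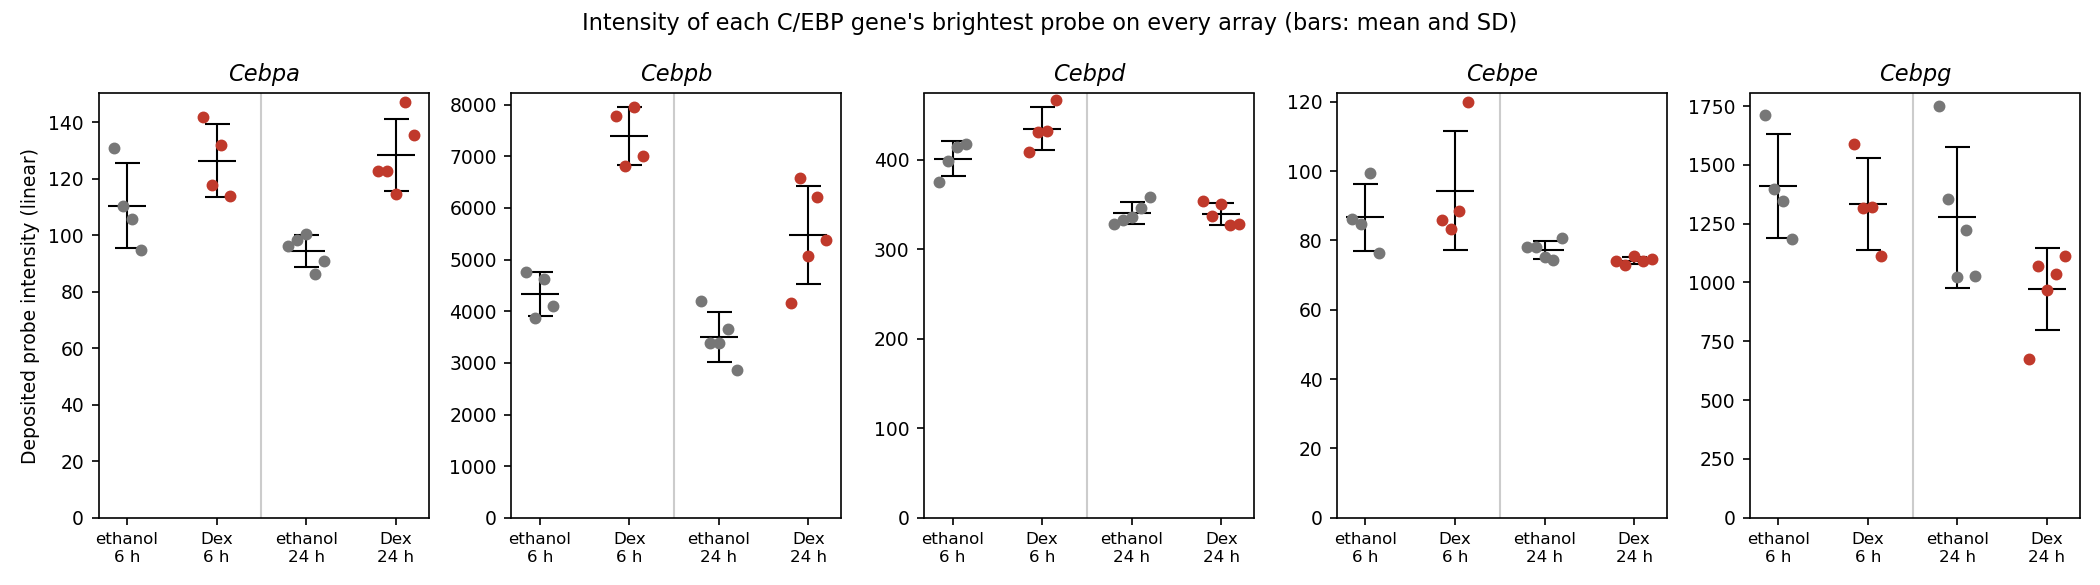
Deposited linear intensity of the brightest probe of each C/EBP gene on every array, with the mean and SD of each group as bars; grey points are ethanol and red points Dex, 4 arrays a group at 6 h and 5 at 24 h. Cebpb separates fully at 6 h and Cebpa at 24 h, while the single Dex array at 4156 for Cebpb and the arrays at 1749 (ethanol) and 673.9 (Dex) for Cebpg, all at 24 h, carry the number 1.

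Cebpg, whose product binds DNA mainly as a heterodimer and is an ATF4 partner in the amino acid stress response, was not called at either time. Its brightest probe, ILMN_1244024, read 1749, 1355, 1024, 1225 and 1028 on the ethanol arrays and 673.9, 1071, 966.3, 1035 and 1114 on the Dex arrays at 24 h, a mean of 1276 ± 299 (SD, n = 5) against 972 ± 175 (SD, n = 5). The highest ethanol array and the lowest Dex array both carried the number 1, and the other arrays of the groups overlapped. The log2FC was -0.39 (SE 0.14, 95% interval -0.67 to -0.10, limma adjusted p = 0.0672, exact two-sided permutation p = 0.0873), and without both arrays numbered 1 it was -0.14 (SE 0.11, adjusted p = 0.475). At 6 h this probe read 1714, 1399, 1345 and 1185 in ethanol and 1589, 1316, 1322 and 1111 in Dex, values that overlapped throughout, with a log2FC of -0.08 (95% interval -0.40 to 0.24, limma adjusted p = 0.842).

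The other Cebpg probes were dim, ILMN_2972026 somewhat above the median probe and ILMN_2422448 below it. ILMN_2972026 averaged 103 ± 9.21 (SD, n = 5) in ethanol and 88.5 ± 5.50 (SD, n = 5) in Dex at 24 h, with a log2FC of -0.22 (SE 0.08, limma adjusted p = 0.0616, exact two-sided permutation p = 0.0159). At 6 h its log2FC was 0.16 (adjusted p = 0.313), and the difference between the times was -0.39 (95% interval -0.63 to -0.15, limma adjusted p = 0.0632, unadjusted p = 0.00297). This difference was called without the ethanol array numbered 2 at 6 h (-0.45, adjusted p = 0.0333) and without the Dex array numbered 3 at 6 h (-0.47, adjusted p = 0.0244). ILMN_2422448 gave -0.04 at 6 h and -0.09 at 24 h (limma adjusted p = 0.730 and 0.251), with an exact two-sided permutation p of 0.0159 at 24 h. The call of ILMN_2972026 at 24 h was made without the Dex array numbered 4 (-0.25, adjusted p = 0.0492), and that of ILMN_1244024 without the ethanol arrays numbered 3 (adjusted p = 0.0406) or 5 (adjusted p = 0.0426). ILMN_2972026 was also called with quantile normalization (adjusted p = 0.0494), each time fitted alone (0.0231) and array weights (0.00646). Without both arrays numbered 1 at 24 h, ILMN_2972026 gave -0.24 (limma adjusted p = 0.0995) and ILMN_2422448 -0.11 (0.233). The 3 probes of Cebpg thus all had a negative log2FC at 24 h, and none passed the threshold in the main model. At 6 h 1 of the 3 was above 0.

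Cebpd, an immediate acute-phase factor that glucocorticoids are known to induce in preadipocytes, was not called at either time. Its brighter probe, ILMN_2707363, read 375.2, 398.1, 413.9 and 417.7 in ethanol and 408.4, 431.2, 431.5 and 466.9 in Dex at 6 h, a mean of 401 ± 19.3 (SD, n = 4) against 434.5 ± 24.2 (SD, n = 4). Of the Dex arrays, 3 of 4 lay above all ethanol arrays, and the fourth lay among them. The log2FC was 0.11 (SE 0.06, 95% interval -0.0003 to 0.23, limma adjusted p = 0.259, exact two-sided permutation p = 0.0857), so a rise of up to 1.17-fold lies within the interval at 6 h.

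At 24 h this Cebpd probe read 328.1, 332.3, 336.4, 345.7 and 358.2 in ethanol and 353.9, 337.4, 350.3, 327.5 and 328.1 in Dex, a mean of 340.1 ± 12.02 (SD, n = 5) against 339 ± 12.3 (SD, n = 5). The groups covered nearly the same range. The 95% interval of the log2FC, -0.11 to 0.10 (limma adjusted p = 0.980), covers changes from 0.929-fold to 1.07-fold. The second probe, ILMN_2588570, was dim at both times, from 82.9 to 96.6 at 6 h and from 70.6 to 82.5 at 24 h, with log2FC of 0.04 and 0.0030 (limma adjusted p = 0.789 and 0.982). The brighter Cebpd probe varied least among the brightest probes of Cebpa, Cebpb, Cebpd and Cebpg, with a coefficient of variation from 3.53% to 5.56% within a group.

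Cebpe, a factor of the granulocyte lineage, lay near the low end of the arrays with all 4 probes, none of which was above the median probe. Of these, ILMN_2528453 was called higher at 24 h, where it read 70.3, 68.3, 68.2, 63.5 and 73.1 in ethanol and 74.2, 78.6, 73.8, 81.1 and 83.7 in Dex, a mean of 68.7 ± 3.51 (SD, n = 5) against 78.3 ± 4.31 (SD, n = 5). The groups did not overlap, but the highest ethanol array lay just under the lowest Dex array. The log2FC was 0.19 (SE 0.05, 95% interval 0.08 to 0.29, limma adjusted p = 0.0142, exact two-sided permutation p = 0.00794). Only 2.25% of probes were dimmer than its ethanol mean and 32.5% than its Dex mean. The call was lost with the missing directions of the array deviations as covariates (adjusted p = 0.0844), an alternative described with the processing, and with the replicate number as a block (adjusted p = 0.0716).

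The other 3 Cebpe probes were not called at either time. At 24 h their log2FC were -0.06 for ILMN_1220301, 0.08 for ILMN_3029849 and 0.04 for ILMN_3103062 (limma adjusted p = 0.678, 0.403 and 0.732), although the exact two-sided permutation p of the first was 0.0397, with Dex lower. At 6 h the same probes gave 0.11, -0.09 and 0.12 (limma adjusted p = 0.525, 0.507 and 0.285). The value for ILMN_1220301 at 6 h turned to -0.01 without the Dex array numbered 4, which read 120 while the other Dex arrays read 83.2 to 88.4. With 1 of 4 probes called, and differences between probes not tested, no statement on the gene as a whole is made. Granulocyte and macrophage markers (Elane, Mpo, Ptprc and Adgre1) summed to 304.5 to 341.9 in ethanol and 310.6 to 335.6 in Dex at 24 h, with 0 of 4 called in limma and 0 of 4 at unadjusted p under 0.05. As 15.8% of all genes were called at 24 h, 0 of 4 says little.

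The change in the Dex response from 6 h to 24 h was tested for each of the 11 probes. The limma test called 0 of 11, with 1 at unadjusted p under 0.05, the dim Cebpg probe above, whereas 3.7% of all probes were called. Of the 11 differences, 3 were positive and 8 negative, with a median of -0.09. In all, 22 exact permutation tests were run on the C/EBP probes, 11 at each time, and their p-values are unadjusted.

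Across arrays, Cebpa and Cebpb varied together within each time, with a Pearson r of 0.68 over the 8 arrays at 6 h and 0.83 over the 10 arrays at 24 h. Cebpg and Cebpa, the neighbours on chromosome 7, gave 0.66 at 6 h and -0.43 at 24 h, and Cebpg and Cebpb -0.05 and -0.11. The most negative r were those of Cebpg with Cebpd at 6 h (-0.85, and -0.59 at 24 h) and of the dim Cebpe with Cebpb at 24 h (-0.71, and 0.31 at 6 h). These correlations are descriptions without a test, since the arrays of a time share the Dex treatment and the labelling and array process.

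The genes whose pattern was most like Cebpb were found by the Pearson r of log2 values over the 18 arrays, after the mean of each time was subtracted, among 11840 genes brighter than the median probe. They were Tgfbr3, a coreceptor for TGF-beta ligands (r = 0.95, log2FC 1.20 at 6 h and 1.03 at 24 h), Greb1 (r = 0.95, log2FC 0.53 and 0.36) and Slc25a33, a mitochondrial pyrimidine nucleotide carrier (r = 0.95, log2FC 0.44 and 0.23). All 3 were called higher at both times, as Cebpb was. For Cebpa the closest were Dlg3 (r = 0.94, log2FC 0.14 and 0.24), Hsd11b1, the enzyme that regenerates active glucocorticoid inside cells (r = 0.93, log2FC 0.49 and 1.26), and Hhat, which attaches palmitate to Hedgehog proteins (r = 0.93, log2FC 0.64 and 0.68). Of these, Dlg3 was not called at 6 h (limma adjusted p = 0.228), and the other values were called. The measure ranks genes by a shared response to Dex and by shared deviations of the arrays.

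Most of the bZIP partners listed here were called lower at 24 h, among them factors known to pair with C/EBP-gamma. Of the 7 partners measured (Ddit3, Atf3, Atf4, Atf5, Batf, Fos and Jun), taking each gene by its brightest probe, 0 were called at 6 h in limma (1 at unadjusted p under 0.05), beside 8.35% of all genes. At 24 h 4 of 7 were called, all lower, beside 15.8% of all genes called and 7.73% called lower. This list, like those below, was chosen with earlier results of these data known, so its shares describe it and are not a test. The median log2FC of the 7 was -0.41 at 24 h and -0.04 at 6 h, beside a median near 0.00 over all genes at both times. Of the 7, only Atf3 differed between the times by the limma test, beside 4.69% of all genes.

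Atf4, the effector of the integrated stress response, averaged 8609 in ethanol and 6472 in Dex at 24 h, a log2FC of -0.41 (limma adjusted p = 0.000794). Atf5, an ATF4 target, fell by 0.80 on the log2 scale (adjusted p = 0.000212), Atf3 by 0.67 (adjusted p = 0.000553) and Ddit3, which encodes the C/EBP-homologous protein CHOP, by 0.67 (adjusted p = 0.00359). At 6 h the values were -0.11 for Atf4, -0.21 for Atf5, 0.05 for Atf3 and -0.35 for Ddit3 (limma adjusted p = 0.536, 0.478, 0.903 and 0.252), and a second, dimmer probe of Atf4 and of Ddit3 was called lower there. For Atf3, Atf5 and Ddit3, as for Cebpg, the highest ethanol array and the lowest Dex array at 24 h were those numbered 1. Without them the 4 genes were still called, at -0.32 for Atf4, -0.54 for Atf5, -0.49 for Atf3 and -0.42 for Ddit3. Fos gave 0.21 at 6 h and 0.09 at 24 h, uncalled.

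Of 12 genes for signals and receptors known to act upstream of the C/EBPs, 4 were called at 6 h (2 higher, 2 lower) and 4 at 24 h (1 higher, 3 lower), beside 8.35% and 15.8% of all genes, with medians of -0.05 and -0.08. Il6ra, the ligand-binding chain of the interleukin-6 receptor, rose from 116 to 240.1 at 6 h and from 123 to 232 at 24 h (log2FC 1.03 and 0.92, limma adjusted p = 2.58e-08 and 2.11e-08). These values are of its brightest probe, and of its 3 probes 1 was called higher at 6 h and 3 at 24 h. Egr2, an early factor of adipogenesis upstream of Cebpb, fell by 1.55 at 6 h and by 1.05 at 24 h on the log2 scale, opposite to Cebpb. Socs3, a feedback inhibitor of STAT3 signalling, fell by 0.35 and by 0.32. Outside the rule for named genes, the remaining calls were Stat3, higher at 6 h (0.23, adjusted p = 0.0192), and Creb1, lower at 24 h by its brightest probe (-0.17, adjusted p = 0.0324), although 1 of its 6 probes was called higher. The call of Stat3 was lost with the covariates (adjusted p = 0.115), and that of Creb1 with the covariates (adjusted p = 0.138) and without both arrays numbered 1 (adjusted p = 0.0786). Nr3c1, the glucocorticoid receptor gene, also outside the rule, gave -0.02 and -0.14, uncalled. Without both arrays numbered 1, Nr3c1 (-0.21, adjusted p = 0.0490) and Lifr, a receptor chain for leukemia inhibitory factor (-0.24, adjusted p = 0.0272), passed the threshold at 24 h.

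Of 6 genes known to control C/EBP protein level or translation (Trib1, Trib2, Cop1, Fbxw7, Celf1 and Calr), 0 were called at 6 h in limma (1 at unadjusted p under 0.05) and 1 at 24 h, beside 8.35% and 15.8% of all genes. That one, Fbxw7, the substrate receptor of a ubiquitin ligase, fell by 0.27 on the log2 scale at 24 h (adjusted p = 0.0163). Its call was lost with the mean of its probes (-0.05, adjusted p = 0.513), with the covariates (adjusted p = 0.0572), and without the Dex array numbered 2 (adjusted p = 0.0581) or 5 (adjusted p = 0.0523) at 24 h. Trib2 gave 0.15 and 0.14, Cop1 -0.04 and -0.21, and Celf1 -0.16 and -0.08 at 6 h and 24 h, all uncalled.

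Known C/EBP targets of the acute-phase response were the list with the largest rises. Of 10 measured genes, 3 were called at 6 h and 6 at 24 h, all higher, beside 4.31% and 8.05% of all genes called higher, and the medians were 0.12 and 0.56. As the list was chosen with earlier results of these data known, these shares describe it and are not a test. Serpina3n, a serine protease inhibitor, rose from 107 to 2312 at 6 h and from 77.9 to 4715 at 24 h (log2FC 4.43 and 5.88). Orm1, the acute-phase protein orosomucoid, rose from 92.5 to 343 at 6 h and from 80.8 to 1573 at 24 h (log2FC 1.89 and 4.27), and its paralogue Orm2 gave 0.42 (adjusted p = 0.0748) and 1.41. The sequence likeness of Orm1 and Orm2 leaves it uncertain how far their probes tell them apart. Lcn2, a siderophore-binding protein, gave 0.29 and 0.34 (adjusted p = 0.0411 and 0.00369). Its 6 h call was lost in 10 of 18 alternatives and was kept with 1 array left out only where that was the ethanol array numbered 1 or the Dex array numbered 4. Il6, Crp, Hpx and Cd14 of the same list were not called at either time.

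The adipocyte and metabolic targets moved less. Of 10 measured, 1 was called lower at 6 h, beside 4.04% of all genes, and 3 higher at 24 h, beside 8.05%, with medians of 0.01 and 0.08. Lpl, lipoprotein lipase, changed direction, from 562 in ethanol to 355 in Dex at 6 h and from 302 to 444 at 24 h (log2FC -0.67 and 0.56, limma adjusted p = 0.00296 and 0.00317). Ppargc1a, a coactivator of mitochondrial genes, gave 0.02 and 0.33, the latter called, and Slc2a4, the insulin-responsive glucose transporter, gave 0.09 and 0.23 (adjusted p = 0.537 and 0.0222). The 24 h call of Slc2a4 was lost without both arrays numbered 1 (0.17, adjusted p = 0.153), and without any one of the ethanol or Dex arrays numbered 1 and 2 (adjusted p from 0.0660 to 0.0711), and with the covariates (adjusted p = 0.0795). Fabp4, a defining adipocyte gene, gave -0.10 and 0.13, uncalled.

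Of 6 muscle genes, 2 were called at 6 h and 4 at 24 h, beside 8.35% and 15.8% of all genes. The ubiquitin ligases of muscle atrophy were called higher at both times, Fbxo32 with log2FC of 0.60 and 1.14 and Trim63 with 0.93 and 0.47. The myogenic factors Myod1 (-0.25 and -0.27, limma adjusted p = 0.0803 and 0.0173) and Myog (0.03 and -0.32, adjusted p = 0.914 and 0.0117) were called lower at 24 h. Both of these calls were lost without the arrays numbered 1 (-0.16, adjusted p = 0.160 for Myod1 and -0.23, adjusted p = 0.0992 for Myog). That of Myod1 was lost without either one of them (adjusted p = 0.0619 without the ethanol array and 0.0592 without the Dex array) and with the covariates (0.0582). The medians of the list were 0.09 and -0.09. Of 6 granulocyte targets only Lcn2, which the acute-phase list also holds, was called, at both times, beside 8.35% and 15.8% of all genes, and Csf3r (0.17 at 24 h), Ltf (0.10 at 24 h), Elane (0.10 at 6 h) and Camp (-0.13 at 6 h) were not.

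**Figure D3:**
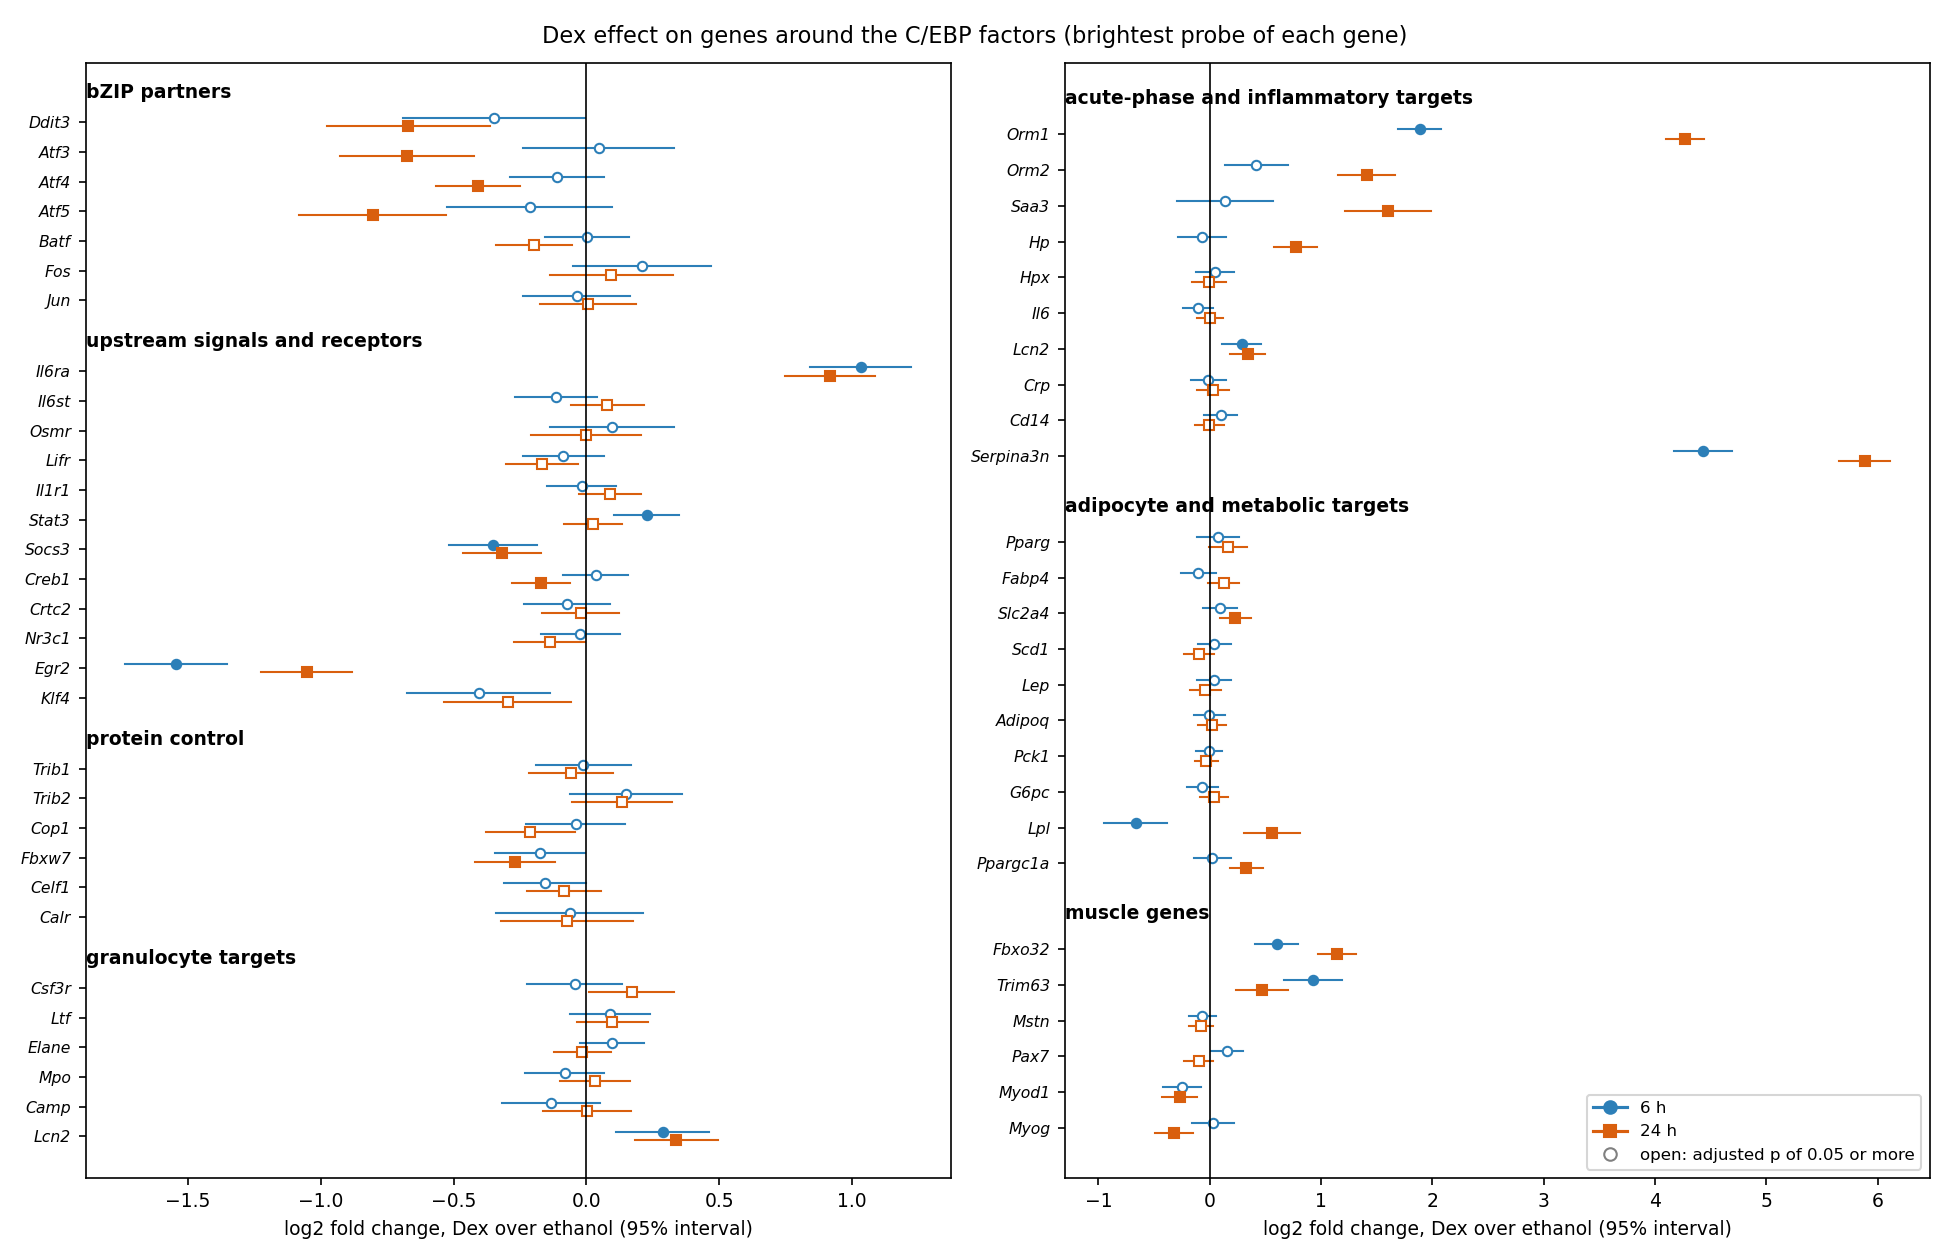
Log2 fold change of Dex over ethanol (95% interval from the limma model) for the brightest probe of each partner, upstream gene, protein regulator and target, at 6 h (circles) and 24 h (squares); filled symbols have an adjusted p under 0.05, and the panels have different axes. At 24 h the filled partners (Ddit3, Atf3, Atf4 and Atf5) all lie left of 0, and the 6 filled acute-phase targets all lie right of it.

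The C/EBP results were recomputed under other processing, models and left-out arrays. Cebpb was called higher in 19 of 19 alternatives at 6 h, with log2FC from 0.72 to 0.82, and in 22 of 22 at 24 h, from 0.57 to 0.80. Cebpa was called higher in 22 of 22 at 24 h, from 0.37 to 0.49, and in 0 of 19 at 6 h. The 24 h value of the brightest Cebpg probe ran from -0.50 to -0.14 and was called lower in 5 of 22, and ILMN_2972026 was called lower in 4 of 20. The 5 include the setting where the mean of the Cebpg probes took the place of the brightest.

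**Figure D4:**
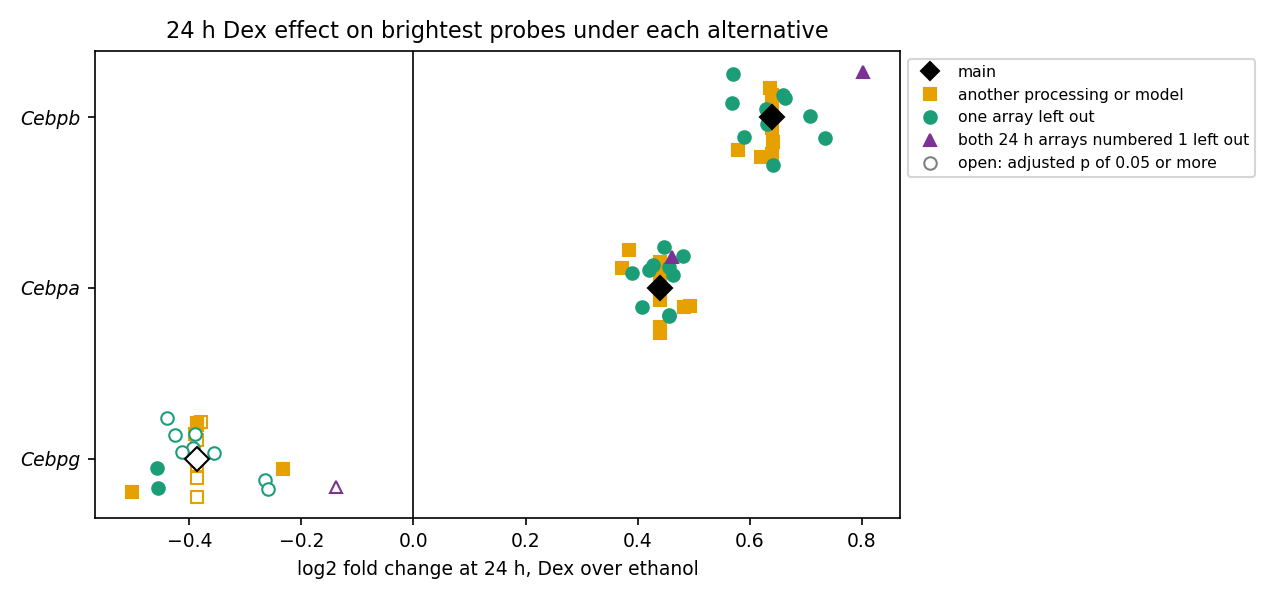
Log2 fold change at 24 h for the brightest probes of Cebpb, Cebpa and Cebpg in the main model (diamonds), under other processing or models (squares), with one array left out (circles) and with both 24 h arrays numbered 1 left out (triangles); filled symbols have an adjusted p under 0.05, and points are spread vertically for view. Cebpb and Cebpa keep filled symbols right of 0 throughout, while the Cebpg triangle (-0.14) lies nearest to 0. The Cebpg square at -0.23 is the mean of its 3 probes.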

How the data were processed

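Illumina mouseWG-6 BeadChip arrays of 18 samples were analysed. The deposited values are linear probe intensities processed by the authors with lumi (per the submitters' processing notes), whose version, background correction and normalization were not given in the sources used here. Detection p-values were not used here, so which probes lay above background is unknown. The design had assumed log2 values, so intensities were converted to log2 (pseudocount 0).

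Samples were grouped by their titles. Of 45281 probes, 34885 had 1 gene symbol, 18 several and 10378 none, and symbols were updated through the gene ID for 34807 and kept for 78. A 4-group means model over 18 arrays was used (lmFit and eBayes, limma 3.58.1, R 4.3.3), with Benjamini-Hochberg adjustment over all probes, after the code was checked on simulated data. That simulation had independent noise on each array and changes only in probes above the median probe. It does not cover linked arrays or changes in dim probes. Of each list the text names the 3 genes with the smallest p at each time, by their brightest probe. The members, lists and naming rule were chosen with earlier results of these data known.

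Within groups, the deviations of the arrays held under 0.01% of their spread in 1 of 6 directions at 6 h and 3 of 8 at 24 h (1126 probes with a mean log2 above 12). On these probes the deviations of some arrays were thus nearly fixed by those of the others, so the arrays may not all be independent. The main limma model and the exact permutation tests treat them as independent, and their p-values may be too small. These 4 missing directions were entered as covariates in an alternative, which left 10 residual degrees of freedom instead of 14. Other alternatives were quantile normalization, normexp with an offset of 50, a pseudocount of 16, probes above the median probe, the brightest probe or the mean of a gene's probes, each time fitted alone, array weights, an intensity trend with a robust prior, the replicate number as a block, each array left out, and both 24 h arrays numbered 1 left out.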

Additional observations from a re-analysis of the deposited data

Results flagged for a closer look

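An array was singled out where its gap to the nearest array, divided by the range of its group, passed Dixon's 95% critical value, which chance does for about 5% of groups, and 4 of the 44 groups of C/EBP probe values did so. For Cebpg, ILMN_1244024 read 673.9 on the Dex array numbered 1 at 24 h, where the nearest Dex array read 966.3. For Cebpg, ILMN_2422448 read 82.2 on the ethanol array numbered 3 at 24 h, where the nearest read 75.6. For Cebpe, ILMN_1220301 read 120 on the Dex array numbered 4 at 6 h, where the nearest read 88.4. For Cebpe, ILMN_3103062 read 82.4 on the Dex array numbered 4 at 24 h, where the nearest read 73. The 3 values other than that of ILMN_1244024 lie on dim probes.

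The response to Dex differed between the times, by the limma test of the difference (24 h minus 6 h, log2 scale), for 9 of the 58 genes of the lists, beside 4.69% of all genes. Of the 58, C3 and Cfd were not measured. The lists were chosen with earlier results of these data known, so this share is not a test. Among acute-phase targets the difference was 2.38 for Orm1, 0.99 for Orm2, 1.46 for Saa3, 0.84 for Hp and 1.45 for Serpina3n. It was 1.23 for Lpl, 0.54 for Fbxo32, 0.49 for Egr2 (a smaller fall at 24 h) and -0.72 for Atf3. The call for Egr2 was lost without the ethanol array numbered 2 or 3 at 6 h or the Dex array numbered 3 at either time (adjusted p from 0.0529 to 0.0659), and with quantile normalization (0.0625). That for Atf3 was lost without the ethanol array numbered 1 or the Dex array numbered 2 at 6 h, or the ethanol array numbered 2 or the Dex array numbered 1 at 24 h (adjusted p from 0.0501 to 0.0645), and without both 24 h arrays numbered 1 (-0.53, adjusted p = 0.0672). With the missing directions as covariates the calls for Egr2, Atf3 and Fbxo32 were lost (adjusted p = 0.0962, 0.0771 and 0.0647). Saa3, the serum amyloid A made outside the liver, and Hp, haptoglobin, lie outside the rule for named genes. Saa3 gave 0.14 at 6 h and 1.60 at 24 h, and Hp -0.07 and 0.77.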

How the results depend on the processing

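For the brightest probe of each C/EBP gene, or the mean of a gene's probes in that setting, 342 of 347 recomputed values kept their direction and their side of the threshold, or stayed uncalled. Of the rest, 5 became calls and 0 reversed direction with a call in either fit. All 5 concern Cebpg at 24 h. The mean of its 3 probes, which is not a value of ILMN_1244024, was called lower (-0.23, adjusted p = 0.00818). ILMN_1244024 itself was called lower with array weights (-0.50, adjusted p = 0.00393) and with the replicate block (-0.39, adjusted p = 0.0498). It was also called lower without the ethanol arrays numbered 3 (-0.46) or 5 (-0.46). Its values with 1 array left out ran from -0.46 to -0.26. Array weights called 5 of the 11 C/EBP probes at 24 h, beside 11329 of all 45281 probes, where the main model called 5726. With 1 array left out, 1 of the 11 was called at 6 h, 3 to 4 at 24 h and 0 to 1 for the difference between times. Over all 45281 probes these settings called 2045 to 2994, 4196 to 4966 and 1140 to 1841.

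Counts over all probes moved more. At 6 h, 2836 became 1431 with each time fitted alone, 1741 with array weights and 1378 with the covariates. At 24 h, 5726 became 11329 with array weights and 2842 with the covariates. For the difference between times, 1675 became 371 with the covariates and 904 with the replicate block. All probes called with the covariates were among those called without them. With 1 array left out the counts ran from 2045 to 2994, from 4196 to 4966 and from 1140 to 1841. The cause was not tested.

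The labels do not say what a replicate number marks. The deviations of same-numbered arrays correlated at 6 h with 0.17, 0.10, -0.11 and -0.01 over all probes (0.57, 0.56, 0.16 and 0.29 over the bright probes). At 24 h the correlations were -0.91, -0.75, -0.74, -0.31 and -0.18, all negative, so the number may link arrays there. What links them was not tested. The main model did not pair arrays by number, and the replicate block was run as an alternative. Of the 4 pairs at 6 h, 1 ethanol and 1 Dex array had their highest correlation with their own number, and 0 of 5 each at 24 h. A negative link cannot raise this count, so it does not decide whether the numbers mark pairs. With the block, Cebpb at both times and Cebpa at 24 h kept their calls. Dim probes limit what Cebpa and Cebpe can show, since their signal over background is unknown.

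Of 1951 recomputed values of named list genes 39 lost and 15 gained a call, and 0 reversed direction with a call in either fit. Values uncalled in both fits could change sign and were not counted, as for Cop1 at 6 h, which ran from -0.14 to 0.05.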

Other observations

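Apart from Myog, the marker lists hold a few calls that no comparison above used. At 6 h Myf5, a myoblast determination factor, was called higher with Dex (0.33, limma adjusted p = 0.0200), and Bglap, osteocalcin, lower (-0.26, adjusted p = 0.0111), while at 24 h they gave 0.06 and -0.09, uncalled. The probes of both genes stayed under 2 times the array median in every group. Among the myotube markers, Ckm (0.30, adjusted p = 0.0124) and Actn2 (0.45, adjusted p = 0.0382) were called higher at 24 h. Myog, given above with the muscle genes, was called lower, a call lost without both arrays numbered 1 (limma adjusted p = 0.0992). The calls of Myf5, Bglap, Ckm and Actn2 were not recomputed under the alternatives.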
